A study of Caenorhabditis elegans with 22 samples.

Results

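The laminin alpha chain gene lam-3 was followed with the other main basement membrane genes of Caenorhabditis elegans: the laminin genes lam-1, lam-2 and epi-1, the type IV collagen genes emb-9 and let-2, and nid-1, unc-52, ost-1 and cle-1. These 10 genes were taken by name from a table of read counts for 42048 genes, and all 10 were among the 15310 genes with enough counts to be tested. The lowest count of any of them in any library was 32. Whole worms of the laboratory wild type N2 were washed off their bacterial food and held in S-basal, a salt buffer, with either no ethanol (control) or 5% ethanol by volume for 1, 4 or 20 h. There were 4 libraries of worms grown without ethanol and taken at time zero, and 3 libraries in each of the 6 groups that differ in ethanol and time, so 22 in 7 groups. All groups were of the same genotype, and no transgene or mutation is named for any of them. The growth and extraction notes call the worms L3 larvae, whereas the title of the series calls them L4. The 15 listed oocyte and eggshell genes summed to between 4776 and 15418 CPM (counts scaled to a common library size) in every library, so transcripts of germ cells and of eggs were abundant.

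Basement membranes are thin sheets of matrix under epithelia and around muscle, gonad, pharynx and nerves. Laminin is a trimer of an alpha, a beta and a gamma chain. The worm has a single beta chain, encoded by lam-1, and a single gamma chain, encoded by lam-2, which join with either of the alpha chains, encoded by lam-3 and epi-1. Laminin sheets bind cells through integrin and dystroglycan, and a network of type IV collagen joins to them. In the worm embryo lam-3 is known mainly from the pharynx and the epi-1 chain from body wall muscle and other tissues, and much of the type IV collagen is made by body wall muscle and somatic gonad cells.

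Library totals lay between 10908205 and 15302047 counts. The largest axis of variation inside groups held 41.4% of the within-group variance, and 6 libraries scored above 10 on it: time zero replicate 1, the second replicate of control 1 h, ethanol 1 h and ethanol 4 h, control 20 h replicate 1 and ethanol 20 h replicate 3. In these 6 libraries long genes read higher than in their group mates, by 0.0810 to 0.211 log2 units per doubling of exon length. All basement membrane genes here except ost-1 have more exon sequence than the median tested gene (1337 bases), from 4378 bases in cle-1 to 14253 in unc-52, against 1153 in ost-1. For some genes, fits that take this into account are given beside the values. The part of this axis in the results was not tested.

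Each ethanol group was set against the control libraries of its hour with edgeR's quasi-likelihood test over all genes, and a gene was called at a Benjamini-Hochberg adjusted p under 0.05. At 1 h 1 of the 10 genes was called, lam-3, which was lower, where 6.67% of all tested genes were called and 1.72% were called lower. At 4 h 2 of the 10 were called, lam-3 lower and nid-1 higher, against 30.5% of all genes (17.1% higher and 13.4% lower). At 20 h 8 of the 10 were called, all lower, against 53.2% of all genes called and 28.1% called lower. Counted by libraries that did not overlap between the arms, 1 of the 10 genes was apart at 1 h (18.9% of all genes), 8 at 4 h (54.3%) and 8 at 20 h (55.4%, and 28.4% with ethanol below). At 4 h 5 of these lay above control and 3 below, and at 20 h all 8 lay below. Over the 10 genes the median log2 fold change came to -0.22 (1 h), 0.26 (4 h) and -1.55 (20 h), beside -0.01, 0.00 and -0.06 over all genes tested. RNA of whole worms was measured, so fewer cells of a type and less RNA per cell cannot be told apart.

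**Figure D1:**
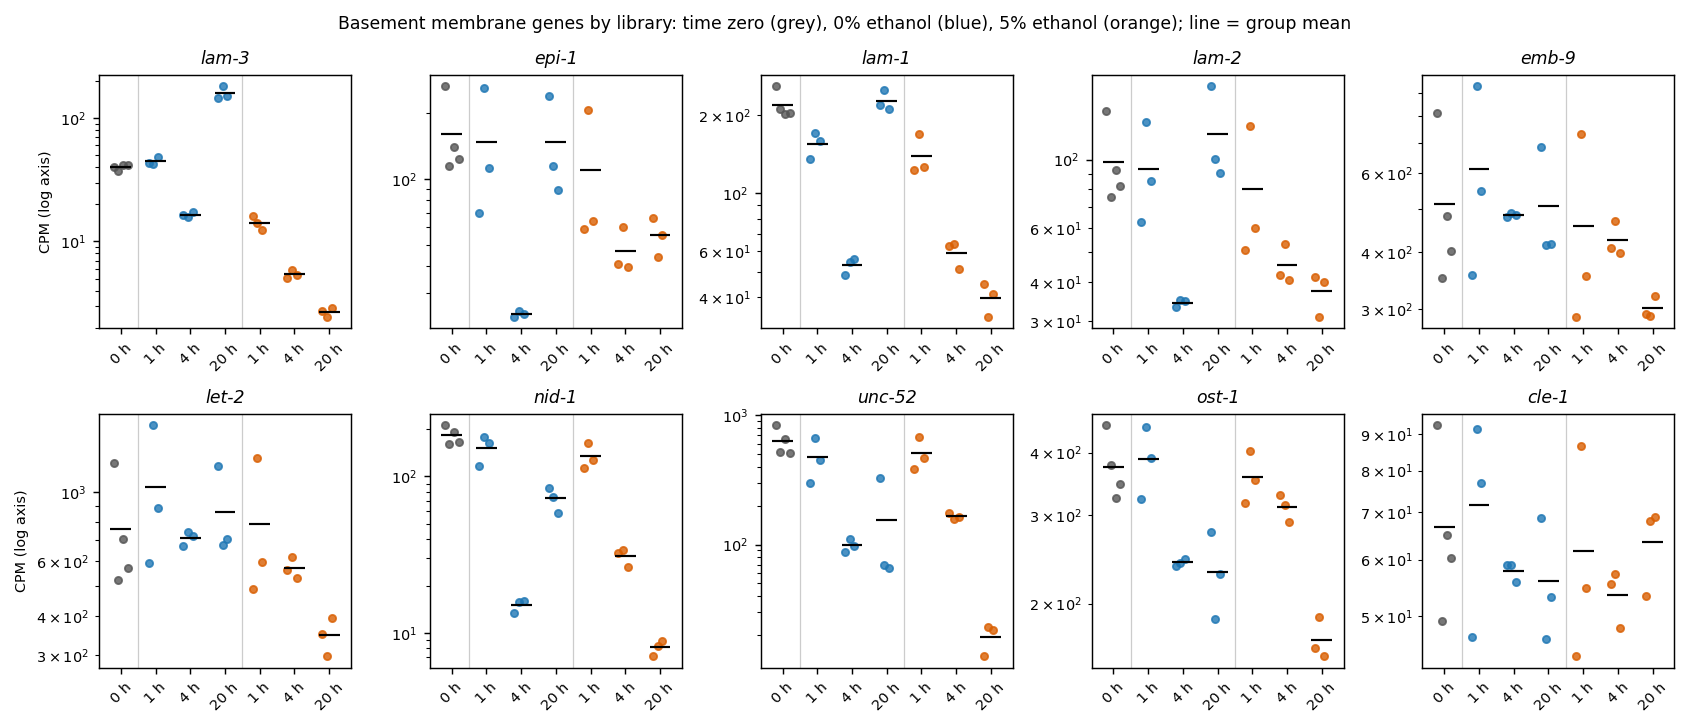
Level of each basement membrane gene in every library, in CPM on a log axis, for time zero (grey), control (blue) and ethanol (orange) at 1, 4 and 20 h; each point is a library and each line the mean of its group. The lam-3 points of control and ethanol are apart at every hour, and at 20 h they lie between 144 and 181 CPM in control and between 2.45 and 2.88 CPM in ethanol.

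Over all libraries the laminin alpha chain gene lam-3 ran from 2.45 to 181.0 CPM. At time zero its levels were 40.2, 37.3, 41.7 and 41.7 CPM in replicates 1 to 4. In control worms they were 42.9, 42.3 and 48.0 CPM at 1 h, 16.3, 15.9 and 17.4 CPM at 4 h, and 143.9, 181.0 and 151.3 CPM at 20 h. In ethanol they were 16.2, 14.1 and 12.3 CPM at 1 h, 5.03, 5.84 and 5.39 CPM at 4 h, and 2.74, 2.45 and 2.88 CPM at 20 h. Ethanol libraries lay below all control libraries of the same hour at each of the 3 times. Control worms thus had less lam-3 RNA at 4 h than before and most at 20 h, while in ethanol the level was lower at each later time.

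With ethanol lam-3 was 3.12-fold lower at 1 h (log2 fold change -1.64 ± 0.13 SE, adjusted p = 4.18e-08, edgeR), where the control mean was 44.4 ± 3.16 CPM (SD, n = 3) and the ethanol mean 14.2 ± 1.96 CPM (SD, n = 3). At 4 h the effect was 3.04-fold (log2 -1.60 ± 0.14, adjusted p = 2.13e-08), with means of 16.5 ± 0.773 and 5.42 ± 0.403 CPM. The effects at 4 h and 1 h differed by 0.04 ± 0.20 log2 units (adjusted p = 0.934, in a test that called 13.1% of all genes), less than the error. At 20 h the effect was 58.6-fold (log2 -5.87 ± 0.16, adjusted p = 2.22e-15), with means of 159 ± 19.6 and 2.69 ± 0.216 CPM. The 20 h effect minus that at 4 h was -4.27 ± 0.20 log2 units (adjusted p = 1.94e-11), in a test that called 32.3% of all genes. At 20 h both arms had moved away from the 4 h levels. Control rose 9.61-fold between 4 and 20 h (log2 3.27 ± 0.14, adjusted p = 9.92e-13) and ethanol fell 2.01-fold (adjusted p = 3.3e-05), so that more of the added difference at 20 h lay on the control side. A fit in which each library's trend on exon length was taken out gave the ethanol fall between 4 and 20 h an adjusted p of 0.130.

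From the highest mean level of lam-3 to the lowest, the groups were control 20 h, control 1 h, time zero, control 4 h, ethanol 1 h, ethanol 4 h and ethanol 20 h. Control 1 h and time zero were neighbours whose libraries did not overlap but whose difference was not called (log2 0.14 ± 0.12, adjusted p = 0.567). The ranges of control 4 h (15.9 to 17.4 CPM) and ethanol 1 h (12.3 to 16.2 CPM) overlapped. All other neighbours in this order had separate ranges. Over the 7 group means, the 5 tested genes with the highest correlation to lam-3 were eat-20 (Pearson r 0.994), ZC374.2 (0.988), prmn-1 (0.985), T28D6.4 (0.978) and C18E9.7 (0.975), taken from 6720 candidate genes. All 5 had their highest mean in control 20 h and their lowest in ethanol 20 h: eat-20 went from 6.64 CPM in ethanol 20 h to 23.1 CPM in control 20 h, while ZC374.2 went from 0.297 to 20.2 CPM. These correlations describe 7 group means from the same libraries. The genes were picked for likeness to lam-3 over those means, so their shared highest and lowest groups largely follow from the choice.

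The other laminin alpha chain gene is epi-1. At time zero it read 264.5 CPM in replicate 1, and 114.2, 139.2 and 122.8 CPM in the others. Control worms had 69.8, 258.7 and 112.4 CPM at 1 h, 23.44, 24.98 and 24.17 CPM at 4 h, and 239.1, 114.4 and 88.8 CPM at 20 h. Ethanol worms had 59.0, 206.6 and 64.1 CPM at 1 h, 40.9, 60.5 and 39.6 CPM at 4 h, and 66.2, 43.9 and 55.5 CPM at 20 h. The arms overlapped at 1 h, ethanol was above control in all libraries at 4 h and below it in all libraries at 20 h. The high value in each uneven group came from one of the 6 libraries above 10 on the within-group axis, in which lam-3 was not raised in the same way. The ethanol difference of epi-1 was not called at 1 h (log2 -0.42 ± 0.49, adjusted p = 0.757) or 4 h (0.96 ± 0.50, adjusted p = 0.169). It was called lower at 20 h (log2 -1.42 ± 0.50, adjusted p = 0.0218), a call that was lost without control 20 h replicate 1 (-0.88, adjusted p = 0.169), ethanol 20 h replicate 2 (adjusted p = 0.0809) or ethanol 20 h replicate 3 (adjusted p = 0.0637). Its 20 h value ran from -1.68 to -0.55 over the 34 alternative fits. At 4 h the higher level in ethanol was called when the 6 libraries were left out (0.74, adjusted p = 0.00236). In all, 4 of the 34 alternative fits called it.

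Per kilobase of exon, which puts genes on one scale, epi-1 was above lam-3 at time zero (14.2 against 4.26 CPM per kilobase) and the order was reversed in the control mean at 20 h (13.1 against 16.8). In each library the ratio of lam-3 to epi-1 per exon length was taken. It was 0.181, 0.389, 0.357 and 0.404 at time zero. Control ratios were 0.730, 0.194 and 0.508 at 1 h, 0.827, 0.755 and 0.854 at 4 h, and 0.716, 1.88 and 2.03 at 20 h. Ethanol ratios were 0.327, 0.0811 and 0.228 at 1 h, 0.146, 0.115 and 0.162 at 4 h, and 0.0493, 0.0665 and 0.0617 at 20 h. All ethanol libraries lay below all controls at 4 and 20 h and overlapped with them at 1 h, where the libraries with a high epi-1 value had the lowest ratio in each arm.

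The ratio of lam-3 to epi-1 differed between ethanol and control by -1.19 log2 units at 1 h, -2.54 at 4 h and -4.57 at 20 h. A two-sided exact permutation test with 3 libraries against 3 cannot go below p = 0.1, and it gave 0.3, 0.1 and 0.1 (0.45, 0.24 and 0.24 adjusted over 12 ratio tests). A two-sided exact permutation of the labels within each time, over all 3 times together, was chosen after these values were seen; it gave a mean difference of -2.77 with p = 0.00075, and 0.003 adjusted over 4 ratios. The smallest p it can give is 0.00025. The exon lengths are 9458 bases for lam-3 and 11247 for epi-1.

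**Figure D2:**
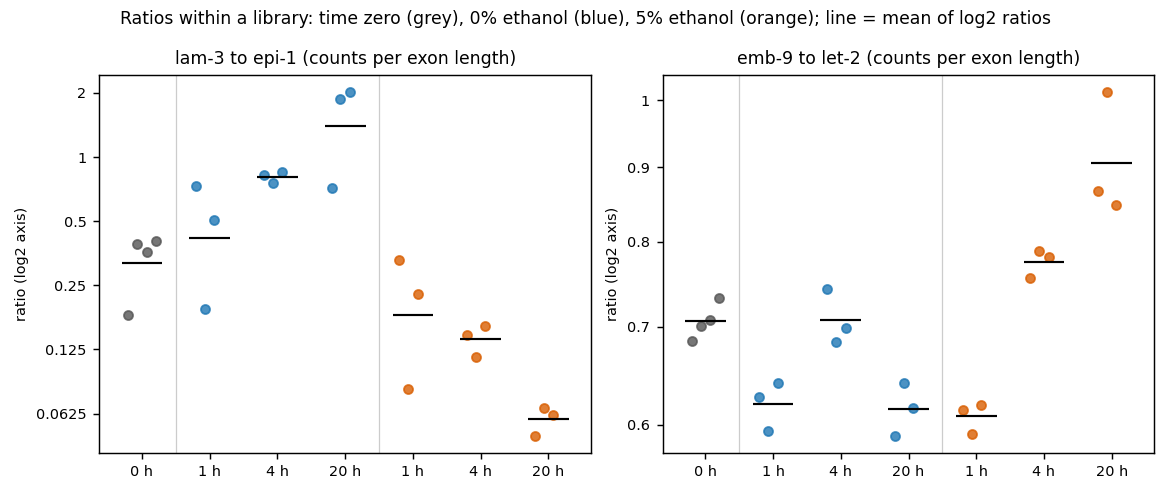
Ratios within each library, per exon length on a log2 axis, of lam-3 to epi-1 (left) and of emb-9 to let-2 (right). Each point is a library and each line the mean of the log2 ratios of its group. In ethanol the mean lam-3 to epi-1 ratio falls with time, while the points of 1 and 4 h overlap. At 20 h the ethanol points lie between 0.0493 and 0.0665 and the controls between 0.716 and 2.03.

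The beta chain gene lam-1 and the gamma chain gene lam-2 were low at 4 h in both arms and high again at 20 h in control, where neither was called against time zero. Levels of lam-1 were 258.4, 211.5, 201.7 and 203.8 CPM at time zero. In control they were 135.2, 170.4 and 158.5 CPM at 1 h, 48.6, 54.7 and 55.9 CPM at 4 h, and 217.7, 249.7 and 210.8 CPM at 20 h. In ethanol they were 123.0, 169.1 and 126.8 CPM at 1 h, 62.6, 64.1 and 51.3 CPM at 4 h, and 44.8, 33.6 and 41.1 CPM at 20 h. The arms overlapped at 1 and 4 h, and at 20 h every ethanol library was below every control. The ethanol difference of lam-1 was log2 -0.15 ± 0.15 at 1 h (adjusted p = 0.731) and 0.16 ± 0.16 at 4 h (adjusted p = 0.510). At 20 h it was 5.67-fold lower (log2 -2.50 ± 0.16, adjusted p = 9.56e-11).

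For lam-2 the controls of 20 h read 173.0, 100.1 and 90.5 CPM and the ethanol libraries 41.5, 30.9 and 40.2 CPM (log2 -1.69 ± 0.34, adjusted p = 0.000272), with no overlap. At 4 h its controls read 33.4, 35.1 and 34.7 CPM and the ethanol libraries 42.3, 53.2 and 40.8 CPM, all higher but not called (0.40 ± 0.33, adjusted p = 0.427). It was called there with the trend on exon length taken out (0.36, adjusted p = 0.0356) and in the fit limited to the 4 h groups (0.44, adjusted p = 0.0114). Among 34 alternative fits only these 2 called it. Of the 45 pairs among the 10 genes, lam-1 and lam-2 had the highest correlation over the 7 group means (Pearson r 0.978), and lam-3 and cle-1 the lowest (0.0871). The median over pairs was 0.669, 13 pairs were above 0.8 and 0 below 0. The correlation of lam-3 with the other alpha chain gene epi-1 was 0.636.

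The sum of both alpha chain genes relative to lam-1, per exon length, overlapped between the arms at 20 h. Control libraries had 0.989, 0.693 and 0.669 and ethanol libraries 0.814, 0.731 and 0.752, a log2 difference of -0.01 (exact permutation p = 1). Without division by length the difference was 0.12. Over the 3 times together the exact permutation within times gave p = 0.399 for this sum, with a mean difference of -0.16. The ratio of lam-2 to lam-1 was higher in ethanol at 20 h by 0.87 log2 units with no overlap (exact permutation p = 0.1, the smallest possible) and by 0.33 over the 3 times (exact permutation p = 0.10025, adjusted p = 0.134). A p above 0.05 does not show that the chains kept the same proportion.

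For the genes of both type IV collagen chains, emb-9 and let-2, no control group was called against time zero, and let-2 was called lower with ethanol at 20 h. For emb-9 the controls of 4 h read 478.2, 489.0 and 484.1 CPM, inside the time zero range of 813.7, 351.5, 481.6 and 401.9 CPM. With the trend on exon length taken out, control at 4 h was called higher than time zero for emb-9 (0.42, adjusted p = 0.0119) and let-2 (0.43, adjusted p = 0.0144). Among 34 alternative fits 2 called this difference for emb-9 and 1 for let-2. The 20 h controls read 685.0, 416.2 and 417.8 CPM and the 20 h ethanol libraries 291.8, 289.8 and 320.9 CPM. All ethanol libraries were below all controls at 20 h, but the difference was not called (log2 -0.75 ± 0.35, adjusted p = 0.0805). It was called in a fit without the 6 libraries named above (-0.53, adjusted p = 0.00458). Among 34 alternative fits 6 called it, and the values ran from -0.87 to -0.23. For let-2 the 20 h controls read 1206, 674.6 and 704.3 CPM and the ethanol libraries 349.7, 297.0 and 393.1 CPM. Its groups did not overlap and it was called lower (log2 -1.31 ± 0.38, adjusted p = 0.00667). All 34 alternative fits called it, with values from -1.46 to -0.77 and a highest adjusted p of 0.0478. At 4 h both genes were lower in every ethanol library than in every control without being called, emb-9 with log2 -0.19 ± 0.35 (adjusted p = 0.769) and let-2 with -0.32 ± 0.38 (adjusted p = 0.605). The let-2 difference was called in the fit limited to the 4 h groups (-0.28, adjusted p = 0.0152) and without the 6 libraries (-0.38, adjusted p = 0.0389). Only these 2 of the 34 alternative fits called it at 4 h.

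The collagen chains are assembled in a fixed proportion in the trimer. Without ethanol the mean emb-9 to let-2 RNA ratio per exon length was 0.707 at time zero, 0.621 at 1 h, 0.708 at 4 h and 0.616 at 20 h. The emb-9 to let-2 ratio per exon length was 0.590, 0.641 and 0.616 in control at 20 h and 0.867, 1.01 and 0.848 in ethanol, without overlap. The ethanol difference was -0.03 log2 units at 1 h, 0.13 at 4 h and 0.56 at 20 h (exact permutation p = 0.5, 0.1 and 0.1). At each single time 0.1 is the smallest p possible. Over the 3 times, in the test chosen after the values were seen, the mean was 0.22 with an exact permutation p of 0.01025, adjusted p = 0.0205 over 4 ratios. With lengths of 5611 and 5826 bases the genes differ little in exon sequence.

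Among genes for the hydroxylases, chaperones and secretion factors of collagen, 15 of 20 listed were tested. With ethanol 3 rose and 0 fell at 1 h, 8 rose and 0 fell at 4 h, and 5 rose and 4 fell at 20 h. The shares of all tested genes called at these times were 6.67%, 30.5% and 53.2%, so the 9 of 15 at 20 h lay near the share of all genes. The prolyl 4-hydroxylase gene dpy-18 rose from 18.2 ± 4.23 to 47.7 ± 3.29 CPM at 1 h (SD, n = 3; log2 1.40 ± 0.21, adjusted p = 0.000161, edgeR) and from 9.47 ± 0.184 to 565 ± 4.98 CPM at 4 h (log2 5.90 ± 0.25, adjusted p = 1.16e-12). At 20 h it was lower in ethanol, at 60.7 ± 18.7 against 92.9 ± 17.6 CPM (log2 -0.61 ± 0.21, adjusted p = 0.0161). Another prolyl 4-hydroxylase gene, phy-2, fell from 601 ± 219 CPM in control to 45.1 ± 42.5 CPM at 20 h (log2 -3.74 ± 0.46, adjusted p = 9.70e-07), and let-268, the lysyl hydroxylase gene that type IV collagen depends on in the worm, fell from 72.6 ± 15.5 to 17.9 ± 1.63 CPM (log2 -2.02 ± 0.15, adjusted p = 6.05e-10). The disulfide isomerase gene pdi-6 rose from 172 ± 9.99 to 823 ± 44.99 CPM at 20 h (log2 2.26 ± 0.14, adjusted p = 3.25e-11). Prolyl 4-hydroxylases and disulfide isomerases also act on cuticle collagens.

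The nidogen gene nid-1, whose product binds laminin and type IV collagen, was the only one of the 10 called higher with ethanol in the fit of all 7 groups, and at 4 h alone. Its levels at time zero were 211.6, 161.8, 191.5 and 165.3 CPM. At 4 h controls read 13.3, 15.9 and 16.1 CPM and ethanol libraries 32.4, 33.9 and 26.3 CPM. At 20 h controls read 84.2, 74.1 and 58.6 CPM and ethanol libraries 7.12, 8.28 and 8.92 CPM. At 4 h every ethanol library was above every control, and at 20 h every one was below. The difference was log2 1.03 ± 0.19 at 4 h (adjusted p = 0.000252) and -3.15 ± 0.20 at 20 h (adjusted p = 7.58e-11). At 1 h the arms overlapped (-0.18 ± 0.18, adjusted p = 0.718), and the change of the effect from 1 to 4 h was itself called (1.22 ± 0.26, adjusted p = 0.00305). Both arms were far under time zero at 4 h, control at a log2 fold change of -3.59 ± 0.20 (adjusted p = 2.72e-11) and ethanol at -2.56 ± 0.19 (adjusted p = 8.40e-10).

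The perlecan gene unc-52, whose product anchors body wall muscle to the epidermis, fell from time zero in both arms. Time zero libraries read 838.4, 519.7, 651.7 and 510.4 CPM, 4 h controls 88.1, 110.0 and 98.3 CPM and 4 h ethanol libraries 177.0, 157.0 and 164.8 CPM. At 20 h controls read 326.4, 69.5 and 66.3 CPM and ethanol libraries 13.7, 22.9 and 21.6 CPM. The arms did not overlap at 4 h, where ethanol was above control without a call (log2 0.75 ± 0.45, adjusted p = 0.236), nor at 20 h, where it was below and called (-2.99 ± 0.48, adjusted p = 2.61e-05). The value of control 20 h replicate 1 was far above its group mates, and without it the 20 h effect was -1.81 (adjusted p = 3.27e-05). In the fit limited to the 4 h groups the higher level in ethanol was called (0.78, adjusted p = 1.79e-05). Among 34 alternative fits 5 called it.

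The gene for SPARC, ost-1, a collagen-binding matrix glycoprotein, was lower at 20 h than at time zero in both arms. In ethanol at 20 h it was 2.21-fold under time zero (log2 -1.15 ± 0.15, adjusted p = 2.58e-06). Its 20 h controls read 277.6, 186.6 and 229.1 CPM and the ethanol libraries 163.5, 187.7 and 157.1 CPM, which overlap. It was called lower at 20 h (log2 -0.45 ± 0.16, adjusted p = 0.0229), and this call was lost without control 20 h replicate 1 (adjusted p = 0.137), ethanol 20 h replicate 1 (adjusted p = 0.109) or ethanol 20 h replicate 3 (adjusted p = 0.145). At 4 h its ethanol libraries, 329.0, 314.3 and 291.2 CPM, were all above the controls, 238.1, 241.4 and 245.9 CPM (log2 0.37 ± 0.16, adjusted p = 0.0920). This difference was called in the fit limited to the 4 h groups (0.40, adjusted p = 0.00103) and without the 6 libraries (0.36, adjusted p = 0.0175). Only these 2 of the 34 alternative fits called it. The type XV and XVIII collagen homolog cle-1, which has 250 bases, 5.71% of its exon sequence, in common with 2 other genes, was not called in any comparison of the 7 groups. Its 20 h controls read 68.7, 46.4 and 53.1 CPM and the ethanol libraries 53.4, 68.0 and 68.8 CPM, which overlap (log2 0.18 ± 0.26, adjusted p = 0.590). With the trend on exon length taken out it was called higher in ethanol at 20 h (0.59, adjusted p = 0.000626). Among 34 alternative fits 2 called it there.

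**Figure D3:**
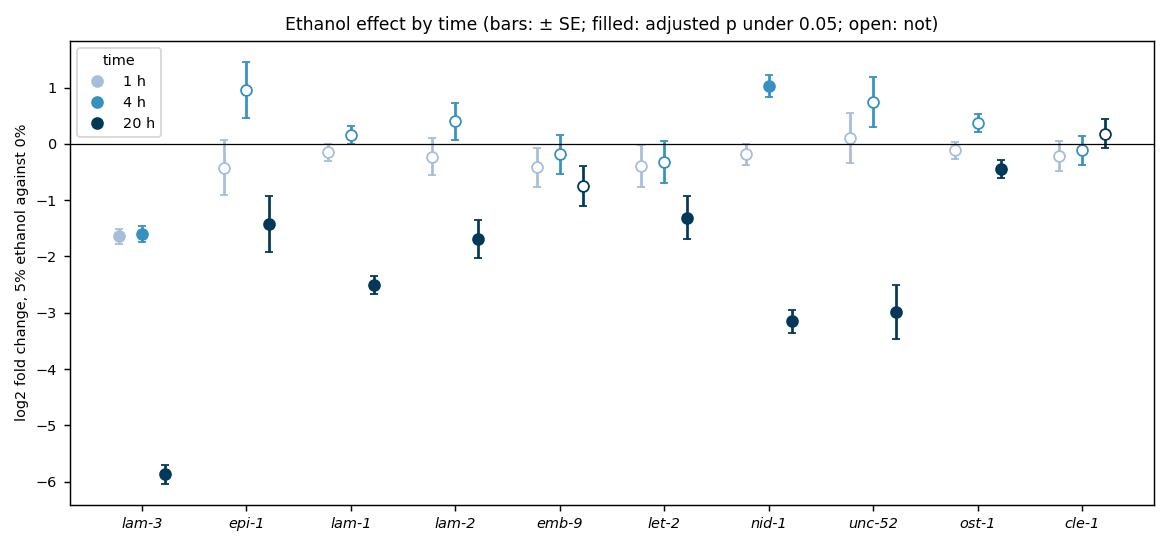
Log2 fold change of ethanol against control at 1, 4 and 20 h for each of the 10 genes, with bars of ± SE; filled points have an adjusted p under 0.05 (edgeR) and open points do not. lam-3 is filled and below 0 at every time, nid-1 is filled above 0 at 4 h, and at 20 h the filled points run from -0.45 (ost-1) to -5.87 (lam-3).

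The ethanol effect differed between the 3 times for 7 of the 10 genes, in a test with 2 degrees of freedom that called 40.7% of all genes. These were lam-1, lam-2, lam-3, epi-1, nid-1, unc-52 and ost-1; emb-9 (adjusted p = 0.638), let-2 (0.240) and cle-1 (0.655) were not called. For lam-1 the 20 h effect was below that at 4 h by a log2 difference of -2.66 ± 0.22 (adjusted p = 1.92e-08), for lam-2 by -2.09 ± 0.47 (adjusted p = 0.00180) and for epi-1 by -2.38 ± 0.71 (adjusted p = 0.0137). The epi-1 difference was not called without control 20 h replicate 1 (-1.84, adjusted p = 0.0527) and was -1.63 without the 6 libraries (adjusted p = 4.70e-05).

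Each group was also compared with the same 4 time zero libraries, so these comparisons share their reference. In control at 1 h 1 of the 10 genes was called, lam-1 (log2 -0.50 ± 0.15, adjusted p = 0.0288), where 10.8% of all genes were called and 5.49% lower. Without control 1 h replicate 1 (adjusted p = 0.134) or replicate 3 (adjusted p = 0.0810) it was not called. In control at 4 h 7 were called, all lower, against 46.2% of all genes called and 23.3% lower. They were nid-1 (-3.59), epi-1 (-2.73 ± 0.51), unc-52 (-2.67 ± 0.46), lam-1 (-2.04 ± 0.16), lam-2 (-1.52 ± 0.32), lam-3 (-1.29 ± 0.13, adjusted p = 8.88e-08) and ost-1 (-0.63 ± 0.15). With the trend on exon length taken out, the lam-3 fall in control at 4 h was -0.73 and not called (adjusted p = 0.111). The values of emb-9 (-0.08), let-2 (-0.09) and cle-1 (-0.20) were not called. In control at 20 h 4 were called, against 55.1% of all genes (30.8% higher and 24.4% lower). There lam-3 was higher (log2 1.98 ± 0.12, adjusted p = 1.66e-11), and nid-1 (-1.34 ± 0.18), unc-52 (-2.03 ± 0.44) and ost-1 (-0.70 ± 0.15) were lower. Without control 20 h replicate 1, unc-52 was at -3.21.

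In ethanol at 1 h 2 were called against time zero, lam-3 (-1.50 ± 0.13, adjusted p = 3.25e-08) and lam-1 (-0.65 ± 0.15, adjusted p = 0.00445), where 10.6% of all genes were called and 3.47% lower. The lam-1 call was lost with the exon length trend taken out (adjusted p = 0.198), and with a replicate block added to that fit neither was called (adjusted p = 0.392 for lam-1 and 0.102 for lam-3). In ethanol at 4 h 6 were called, all lower, against 39.2% of all genes called and 19.5% lower: lam-3 (-2.89 ± 0.14), nid-1 (-2.56), unc-52 (-1.92 ± 0.44), lam-1 (-1.88 ± 0.15), epi-1 (-1.77 ± 0.48) and lam-2 (-1.12 ± 0.32). In ethanol at 20 h 8 were called, all lower, against 53% of all genes called and 26.6% lower. The largest falls were those of unc-52 (-5.02 ± 0.52), nid-1 (-4.49 ± 0.21) and lam-3 (-3.89 ± 0.15). The let-2 fall (-1.13 ± 0.36, adjusted p = 0.0132) was not called without time zero replicate 1 (-0.76, adjusted p = 0.0516) or ethanol 20 h replicate 2 (adjusted p = 0.0568), nor was that of epi-1 (-1.54 ± 0.48, adjusted p = 0.0110) without ethanol 20 h replicate 2 (adjusted p = 0.0516).

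Within each arm, 20 h was set against 4 h in comparisons added after values were seen. In control 5 of the 10 rose, against 47.2% of all genes called and 24% called higher: lam-3 (log2 3.27), epi-1 (2.61 ± 0.52), nid-1 (2.26 ± 0.19), lam-1 (2.09 ± 0.16) and lam-2 (1.82 ± 0.34). All 4 laminin chain genes were thus higher in control worms at 20 h than at 4 h. With the exon length trend taken out these 5 rises were joined by 3 falls, of emb-9 (-0.50), cle-1 (-0.50) and unc-52 (-0.59, from an uncalled 0.64). That fit called 51.5% of all genes. Without the 6 libraries unc-52 was called lower too (-0.51, adjusted p = 0.0232). In ethanol none of them rose. There 5 of the 10 fell, against 24.3% of all genes called and 14.2% called lower: unc-52 (-3.10 ± 0.48), nid-1 (-1.93 ± 0.20), lam-3 (2.01-fold), ost-1 (-0.88 ± 0.16) and lam-1 (-0.57 ± 0.16). The falls of lam-3 and lam-1 were not called with the exon length trend taken out (log2 -1.01 and -0.59, adjusted p = 0.130 and 0.115). That of lam-1 was also not called without ethanol 20 h replicate 2 (adjusted p = 0.0588). The epi-1 and lam-2 values were 0.23 ± 0.49 (adjusted p = 0.838) and -0.27 ± 0.33 (adjusted p = 0.664).

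Of 18 other listed basement membrane and matrix-bound protein genes, 16 were tested. With ethanol 1 rose at 1 h and 0 fell, 2 rose and 6 fell at 4 h, and 1 rose and 11 fell at 20 h. Of all tested genes 6.67% were called at 1 h, while 13.4% were called lower at 4 h and 28.1% at 20 h. The fibulin gene fbl-1 was higher in ethanol at 1 h (log2 0.59 ± 0.17, adjusted p = 0.0348), 4 h (0.90 ± 0.17, adjusted p = 0.000294) and 20 h (0.64 ± 0.16, adjusted p = 0.00228). The ADAMTS gene adt-2 rose from 36.5 ± 4.46 to 89.3 ± 8.24 CPM at 4 h (1.29 ± 0.17, adjusted p = 6.82e-06), and the peroxidasin gene pxn-2 fell from 3.24 ± 0.472 to 1.26 ± 0.357 CPM (-1.35 ± 0.20, adjusted p = 2.36e-05). At 20 h the agrin gene agr-1 fell from 38.1 ± 3.93 to 2.98 ± 1.35 CPM (-3.66 ± 0.25, adjusted p = 2.33e-10) and the netrin gene unc-6 from 37.4 ± 2.93 to 5.98 ± 1.12 CPM (-2.65 ± 0.21, adjusted p = 1.36e-09). Both had been at 3.45 ± 0.345 and 4.63 ± 1.42 CPM in control at 4 h, so that the 20 h difference again lay mainly on the control side. From 4 to 20 h in control, 11 of these 16 genes rose and 1 fell, where 24% of all genes were called higher.

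The receptors that bind laminin and collagen and the muscle attachment genes formed a list of 20, of which 19 were tested. None was called at 1 h, where 0 rose and 0 fell. At 4 h 1 rose and 2 fell, and at 20 h 1 rose and 18 fell. Of all genes 6.67% were called at 1 h, 30.5% at 4 h and 53.2% at 20 h. The one that rose was dgn-2, a dystroglycan-related gene of low counts (log2 3.62 ± 0.77, adjusted p = 0.000509). The integrin alpha gene pat-2 rose from 30.0 ± 1.55 to 53.5 ± 5.71 CPM at 4 h (log2 0.84 ± 0.15, adjusted p = 0.000146), and the muscle attachment gene unc-95 fell (-1.15 ± 0.22, adjusted p = 0.000347). The collagen receptor gene ddr-2 fell from 28.7 ± 4.23 to 2.18 ± 0.519 CPM at 20 h (-3.72 ± 0.24, adjusted p = 6.81e-11). In control 16 of the 19 rose from 4 to 20 h and 0 fell, against 24% of all genes called higher there; 28.1% of all genes were called lower with ethanol at 20 h. On the epidermal side of the attachment, 10 of 12 listed genes were tested: 0 rose and 0 fell at 1 h, 1 rose and 2 fell at 4 h, and 0 rose and 10 fell at 20 h, beside the same 28.1%. The intermediate filament gene ifb-1 rose at 4 h (0.85 ± 0.17, adjusted p = 0.000608), and ifa-3 fell at 20 h from 41.8 ± 10.3 to 0.133 ± 0.0193 CPM (-8.21 ± 0.40, adjusted p = 2.08e-12).

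**Figure D4:**
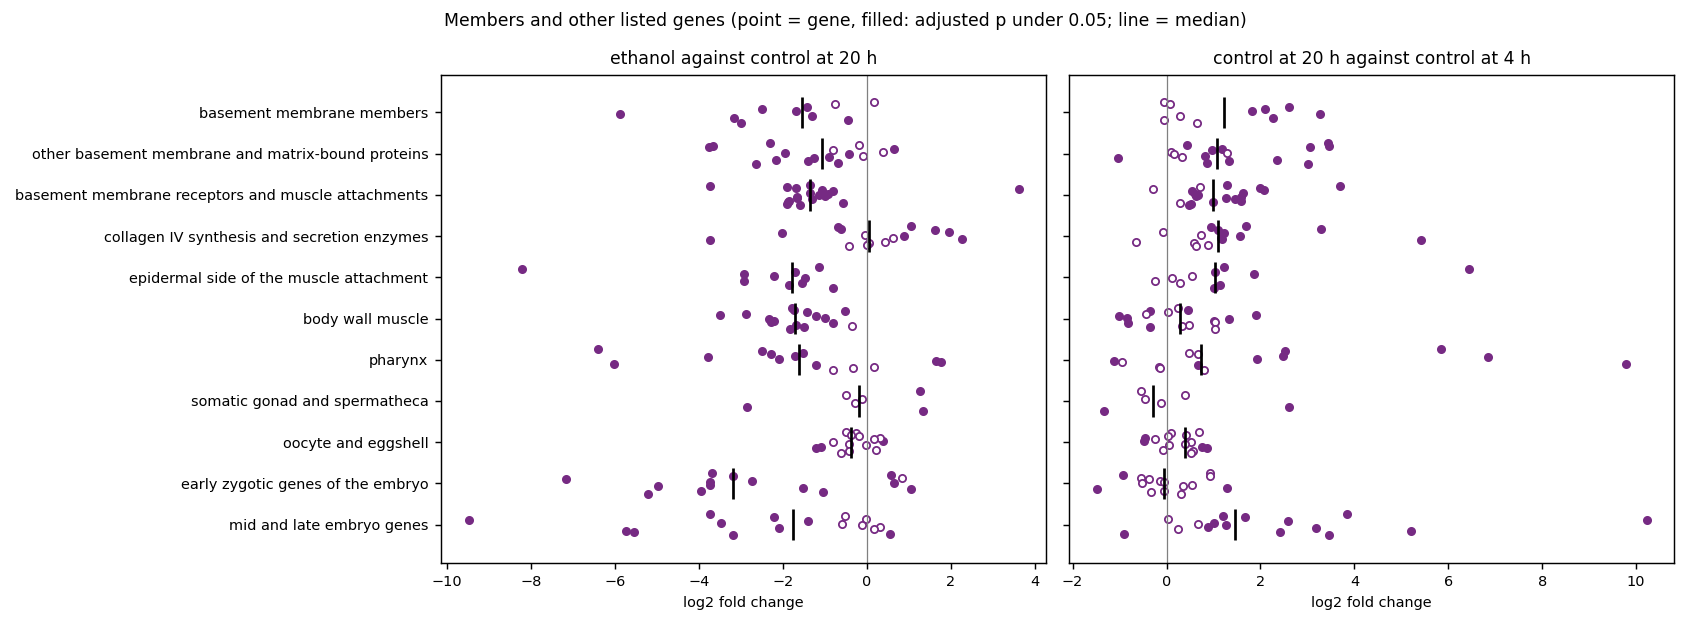
Log2 fold change for the 10 basement membrane genes and for each list of other genes. The left panel shows ethanol against control at 20 h, and the right panel control at 20 h against control at 4 h. Each point is a gene, filled where its adjusted p is under 0.05 (edgeR), and each line is the median of the list. In the left panel 18 of 19 receptor and attachment genes and 15 of 16 body wall muscle genes are filled and below 0.

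Among tissues that make or carry these membranes, most body wall muscle and pharynx markers were lower with ethanol at 20 h. Most somatic gonad markers were not. Of 16 body wall muscle genes tested of 17 listed, 0 rose and 0 fell at 1 h and at 4 h, and 0 rose and 15 fell at 20 h, where 28.1% of all genes were called lower. Their summed level was 10882 to 12949 CPM in control at 20 h and 3966 to 4306 CPM in ethanol, and 10537 to 11382 and 9232 to 10785 CPM at 4 h. The myosin gene myo-3 fell from 321 ± 122 to 28.3 ± 5.75 CPM at 20 h (log2 -3.50 ± 0.35, adjusted p = 5.78e-08). Of 14 pharynx genes tested of 15 listed, 0 were called at 1 h and 4 h, and 2 rose and 9 fell at 20 h, beside 28.1% of all genes called lower. Their sum was 324 to 1014 CPM (median 412) in control at 20 h and 222 to 267 CPM in ethanol at 20 h. It was 356 to 391 CPM in control at 4 h and 245 to 291 CPM in ethanol at 4 h. At 1 h the pharynx sums overlapped, at 355 to 730 CPM in control and 347 to 680 CPM in ethanol. Of 6 somatic gonad and spermatheca genes tested of 8 listed, 0 were called at 1 and 4 h, and 2 rose and 1 fell at 20 h, or 3 of 6 against 53.2% of all genes. At 20 h the pharyngeal genes abu-14 (log2 -6.40 ± 0.95, adjusted p = 9.74e-06) and phat-4 (1.76 ± 0.58, adjusted p = 0.0147) had the largest fall and rise of their list. The abu-14 control libraries were very uneven, at 52.1 ± 65.9 CPM against 0.588 ± 0.256 CPM in ethanol. In the gonad list these were lim-7 (-2.86 ± 0.20, adjusted p = 2.47e-10) and sth-1 (1.35 ± 0.31, adjusted p = 0.00110). The part of these tissues in the result was not tested.

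Most genes of the middle and late embryo were also lower with ethanol at 20 h, while most early zygotic genes were lower at 4 h already. Of 16 genes of the middle and late embryo, 3 rose and 0 fell with ethanol at 1 h, 4 rose and 2 fell at 4 h, and 1 rose and 9 fell at 20 h. From 4 to 20 h in control 12 rose and 1 fell. Of all genes 6.67% were called with ethanol at 1 h, 30.5% at 4 h and 53.2% at 20 h (28.1% lower). In control 24% of all genes rose from 4 to 20 h. Their summed level was 123 to 166 CPM at time zero and 143 to 159 CPM in control at 4 h. It was highest in control at 20 h, at 357 to 463 CPM, against 151 to 159 CPM in ethanol at 20 h. The hatching enzyme gene hch-1 had no counts at time zero or at 1 h and reached 101 ± 15.0 CPM in control at 20 h, against 0.134 ± 0.120 CPM in ethanol (log2 -9.48 ± 0.39, adjusted p = 1.99e-10). Others of this list were hlh-1, a body wall muscle transcription factor gene of the embryo, which rose at 1 h (1.23 ± 0.20, adjusted p = 0.000273), sym-1 and hnd-1, which rose (3.78 ± 0.38, adjusted p = 1.38e-07) and fell (-2.31 ± 0.32, adjusted p = 1.24e-05) at 4 h, and tbx-9, which rose at 20 h (0.54 ± 0.22, adjusted p = 0.0431). Of 27 early zygotic genes 15 were tested: 1 rose and 1 fell at 1 h, 1 rose and 10 fell at 4 h, and 3 rose and 11 fell at 20 h. At 4 h 13.4% of all genes were called lower. The gene sdz-8 rose at all 3 times (log2 0.86 ± 0.21, 1.27 ± 0.20 and 1.05 ± 0.23), vet-2 fell at 1 h (-1.05 ± 0.28, adjusted p = 0.0217) and pes-10 fell at 4 h (-5.01 ± 0.53) and 20 h (-7.17 ± 0.69). Among 15 oocyte and eggshell genes 0 were called at 1 h and 1 fell at 4 h (cpg-3, -0.46 ± 0.17, adjusted p = 0.0388). At 20 h 1 rose and 2 fell, beside 53.2% of all genes called. There egg-2 was at 0.38 ± 0.15 (adjusted p = 0.0413) and perm-4 at -1.22 ± 0.28 (adjusted p = 0.000927). At 1 h the middle and late embryo sums were 135 to 192 CPM in control and 137 to 189 CPM in ethanol. The part of embryo RNA in the result was not tested.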

How the data were processed

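Whole worm polyA libraries were made with the Kapa mRNA HyperPrep kit, per the labels' protocols. The authors deposited whole-number read counts per gene. Per the submitters' processing notes they used Trimmomatic 0.39, fastp 0.23.2, STAR 2.7.9a and featureCounts from Subread 2.0.3 with build ce10. Not given in the sources used here are the annotation, the strand setting and how reads mapping to more than one place were counted. Exon lengths and gene overlaps come from WBcel235, so no coordinates and no sequences are printed.

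The members, lists and tests were chosen with earlier results of these data known. The 10 genes were matched by symbol. A model with a mean for each of the 7 groups was fitted in edgeR 4.0.16 (R 4.3.3), with TMM scaling and robust quasi-likelihood dispersions, over the 22 libraries and the 15310 genes that passed filterByExpr (minimum count 10, minimum total 15). P-values are two-sided and adjusted over those genes. SE is the log2 fold change divided by the square root of F. CPM uses TMM-scaled library sizes, and CPM per kilobase divides it by exon length. Named list genes are, for each comparison, the called genes with the largest rise and the largest fall of a list, with a mean of at least 5 CPM in a group. Outside this rule agr-1, unc-6, let-268, dgn-2, dpy-18 at 20 h and fbl-1 at 4 h were named after their values were seen. The genes most like lam-3 were the 5 with the highest Pearson r over the 7 group means of log2 CPM, among genes with a mean of at least 5 CPM in a group and means ranging over at least 1 log2 unit.

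The labels call the libraries biological replicates without saying whether they came from separate cultures, and the p-values therefore cover only how far these libraries spread, which may be technical. Group mates never agreed within counting error (chi-square per degree of freedom 2.07 to 126.2). The alternatives were DESeq2 1.42.0, limma-voom (limma 3.58.1), other scalings, other filters, a fit of only the 2 groups compared, a block for replicate number, an offset for exon length and each library left out. A fit without the 6 libraries above 10 on the within-group axis was added after the data were seen.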

Additional observations from a re-analysis of the deposited data

Results flagged for a closer look

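The ethanol effect differed between 1, 4 and 20 h for 7 of the 10 basement membrane genes, by edgeR's test of the difference with 2 degrees of freedom. The adjusted p was 7.96e-12 for lam-3, 1.17e-09 for nid-1, 1.13e-08 for lam-1, 0.000199 for unc-52, 0.00346 for lam-2, 0.0188 for ost-1 and 0.0308 for epi-1. The same test called 40.7% of all genes. Leaving out single libraries ended the calls of epi-1 (without any one of the 4 h controls, control 20 h replicate 1, ethanol 4 h replicate 2 or ethanol 20 h replicates 2 or 3, adjusted p 0.0587 to 0.0866) and ost-1 (without ethanol 20 h replicates 1 or 3, adjusted p 0.0617 and 0.0692).

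The epi-1 level of 264.5 CPM in time zero replicate 1 stood apart from the other 3 time zero libraries, which read 114.2 to 139.2 CPM. It was 1 of 10 genes looked at in this way, and chance flags about 1 in 20 groups. These 10 looks were not independent. Replicate 1 was among the 6 libraries above 10 on the within-group axis and read highest at time zero for all 10 genes except lam-3.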

How the results depend on the processing

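Over 34 alternatives per comparison, lam-3 was called lower with ethanol at 4 h in 34 (log2 -1.66 to -1.55), at 20 h in 34 (-6 to -5.40) and at 1 h in 33. The exception at 1 h was the exon length offset with the replicate block (-1.34, adjusted p = 0.0725), which left 0 of the 10 genes called at 1 h. At 4 h the report calls 2, where 30.5% of all genes were called. The exon length offset called 5 (34.2% of all genes) and the offset with the replicate block 4 (31.7%). The fit of only the groups compared called 7 (47.6%) and the fit without the 6 libraries 6 (38.1%). Each library left out gave 2 to 3. At 20 h, where the report calls 8 beside 53.2% of all genes, leaving out a library gave 6 to 9 calls. The 20 h call of ost-1 was also lost with library totals alone (adjusted p = 0.0968) and without a count filter (0.0867), and that of epi-1 without the filter (0.0648). In control 1 h against time zero the call of lam-1 was lost (0 calls) with the replicate block, the offset, both, and only the groups compared. There were 2 calls without the 6 libraries, in a fit that called 13.4% of all genes. Leaving out a library gave 0 to 1. In ethanol 1 h against time zero the calls were 1 with the offset (lam-3), 0 with offset and block and 5 without the 6 libraries. These fits called 12.5%, 9.49% and 16.1% of all genes. The offset gave 8 calls between control 20 h and 4 h, 5 higher and 3 lower, where it called 51.5% of all genes. At 1 h the offset reversed the uncalled values of lam-1 (0.10), nid-1 (0.0884) and cle-1 (0.0242), and so did the offset with the block (0.11, 0.0879 and 0.0236). Leaving out a library at 1 h moved uncalled values across 0 for unc-52 (-0.13 to 0.43), lam-2 (-0.68 to 0.0825), epi-1 (-1.18 to 0.23) and let-2 (-0.87 to 0.0677), and for the ratio of lam-2 to lam-1 (-0.38 to 0.0879). For both alpha chains to lam-1 the ranges were -0.0122 to 0.23 at 4 h and -0.11 to 0.17 at 20 h, with 0.12 at 20 h for raw counts. The cause of these moves was not tested. Library totals alone shifted the median of all genes from -0.06 to 0.10 at 20 h. The replicate block by itself changed no call but that of lam-1 (adjusted p = 0.0571); same-numbered libraries correlated from -0.360 to 0.621, with 3 of 9 pairs above 0.1 (2 of them at 1 h, 0.603 and 0.621), so the numbers were not taken to pair the libraries.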
